A study of Mus musculus with 8 samples.

Results

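The acid-base genes of intercalated cells were examined in RNA of mouse kidneys whose blood flow had been stopped and then restored (ischemia-reperfusion). The set has 10 genes, taken by symbol from the 25239 genes of the table: the exchangers Slc4a1, Slc26a4 and Slc4a9, the transcription factor Foxi1, the proton pump subunits Atp6v1b1, Atp6v1g3, Atp6v0d2 and Atp6v0a4, the ammonia channel Rhcg and the carbonic anhydrase Car2. All 10 passed the filter on low counts. The series holds 4 libraries with the genotype label WT, named control 1 to 4, and 4 of the myeloid-specific FoxO1-knockout, named knockout 1 to 4. The knockout animals were Lyz2-CreERT2 FoxO1flox/flox mice, in which Lyz2, a gene of myeloid cells, drives a Cre that tamoxifen switches on; tamoxifen is listed at 75 mg per kg on 5 days in animals aged 8 to 10 weeks, and this protocol stands with all 8 samples. Both groups lost the right kidney, and a clamp closed the left renal vessels for 35 minutes. RNA came from tissue treated with collagenase. No uninjured kidney is part of the comparison, and the labels do not state whether the controls carried Cre or how long after reperfusion the tissue was collected. The labels do not say that the libraries are separate animals, so p-values measure the spread between libraries, which may be partly technical.

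Intercalated cells lie among the principal cells of the connecting tubule and collecting duct and set how much acid or base leaves in the urine. Type A cells secrete protons through a vacuolar proton pump (V-ATPase) in the apical membrane and return bicarbonate to the blood through the anion exchanger AE1, the product of Slc4a1. Type B cells secrete bicarbonate through pendrin, the product of Slc26a4, and carry the bicarbonate transporter AE4, the product of Slc4a9, on the basolateral side. Foxi1 is the forkhead transcription factor needed for intercalated cells to form, and the pump of these cells uses isoforms of several subunits that most other cells make little of.

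Library totals ran from 29044405 to 35530421 counts, and 1 count was worth 0.0281 to 0.0360 CPM (counts relative to library size, scaled with TMM factors). The 10 genes had between 201 and 23046 counts in every library. Summed genes of injured tubule cells, which include Havcr1 and Lcn2, stood at 16059 to 30622 CPM in controls and 6598 to 7275 CPM in knockouts, and 10 of 12 were lower in the knockout with 0 higher. Of 16 immediate early and heat shock genes, which can respond to tissue handling, 9 were lower and 0 higher, with sums of 1508 to 1957 and 888 to 1114 CPM. These values separated the same groups as the results that follow, and their part in them was not tested. The targeted gene, Foxo1, was at 34.5, 33.4, 33.0 and 33.9 CPM in the 4 control libraries, in order, and at 41.4, 41.0, 42.9 and 39.3 CPM in the 4 knockout libraries (adjusted p = 0.0647 by edgeR), so the whole-tissue level was not lower; it does not check a deletion limited to myeloid cells, and the group names rest on the labels. Lyz2 was at 2.28 CPM in control 1 and 0.367 CPM in knockout 3, against 25.4 to 50.4 CPM in the other 6 libraries. With control 1 and knockout 3 both left out, 8 of the 10 acid-base genes were called higher, against the 9 described next; the call that was lost was that of Atp6v0a4.

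Of the 10 acid-base genes, 9 rose in the knockout and 0 fell, at an adjusted p under 0.05 in edgeR's quasi-likelihood test; Car2 was the gene that did not pass. Over all 15000 genes tested, 6.45% were called higher by the same rule, and 12.7% were called in either direction. The same 9 genes had groups that did not overlap, with every knockout library above every control, against 11.1% of all genes. The median log2 fold change (knockout over control) of the 10 was 0.95, beside -0.01 over all genes. These are whole-tissue levels, in which more cells of a type and more RNA per cell cannot be told apart.

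**Figure D1:**
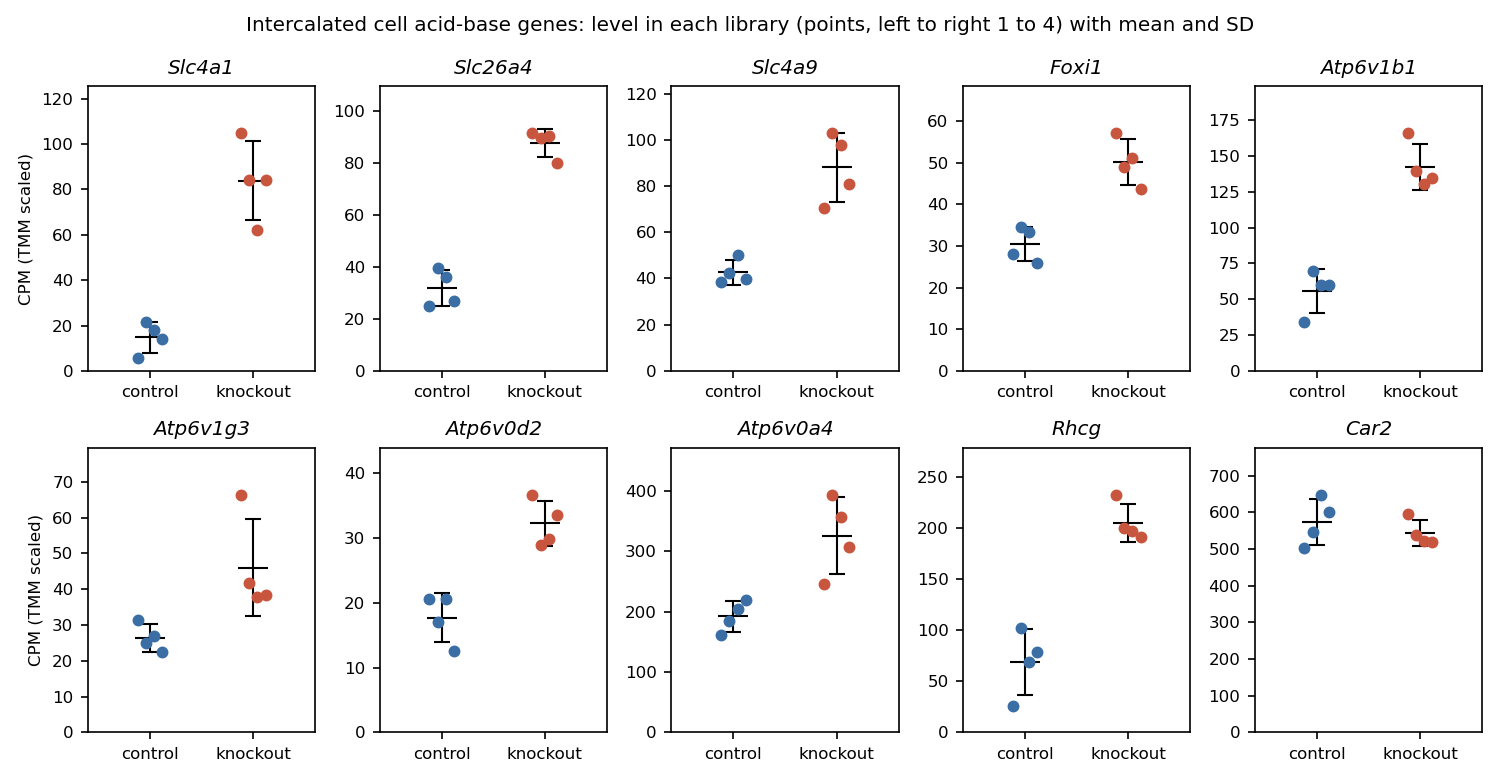
Level of each gene in CPM (y axis, linear, from 0) in the 4 control and 4 knockout libraries; points are libraries 1 to 4 from left to right and bars are the mean and SD. In 9 panels every knockout point lies above every control point, and in the Car2 panel the knockout points lie within the control range of 502 to 647 CPM.

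Slc4a1, which encodes AE1, rose most of the 10 in the edgeR fit. Its level was 5.65, 21.6, 17.9 and 14.3 CPM in controls 1 to 4 and 105, 84.3, 62.3 and 84.2 CPM in knockouts 1 to 4. Control 1 was the lowest library and the groups were far apart. The means were 14.9 ± 6.83 and 83.9 ± 17.3 CPM (SD, n = 4 each), a difference of 2.50 on the log2 scale (adjusted p = 0.00252 by edgeR, SE 0.35). Without control 1 the log2 fold change was 2.22.

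AE1 is also the band 3 protein of red cells, so red cell genes were read in the same libraries. The haemoglobin genes Hba-a1, Hba-a2, Hbb-bs and Hbb-bt were listed at 0 in all 8 libraries; they come in near-identical copies, and whether reads shared by copies were counted is not given, so these zeros are not read as a level. Rhag, a membrane protein gene of red cells, had 1 to 5 counts in controls and 0 in the knockouts. Alas2, the haem synthesis enzyme of red cells, stood at 2.57 ± 1.39 and 6.52 ± 3.68 CPM (edgeR adjusted p = 0.101), and Epb42, a membrane skeleton gene, at 1.23 ± 0.493 and 0.757 ± 0.304 CPM (edgeR adjusted p = 0.334). Of the 16 red cell genes, 4 passed the filter on low counts and 0 of these were called by edgeR; 1 of them, Alas2, had an unadjusted p under 0.05 (0.0212) and was called by DESeq2 (adjusted p = 0.0308). The 16 listed genes, to which the haemoglobins add nothing, summed to 8.04 to 11.7 CPM in controls and 10.9 to 21.3 CPM in knockouts. Slc4a1 alone was above that sum in 7 libraries and below it in control 1 (5.65 against 8.04 CPM). The part of red cells in the Slc4a1 difference was not tested.

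Slc26a4, which encodes pendrin, had 25.0, 39.8, 35.9 and 27.0 CPM in the controls and 91.3, 89.5, 90.3 and 79.8 CPM in the knockouts. The knockout libraries lay close together, with knockout 4 below the others. The means of 31.9 ± 7.06 and 87.7 ± 5.31 CPM gave a difference of 1.46 on the log2 scale (adjusted p = 9.08e-04 by edgeR, SE 0.16).

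Slc4a9, which encodes AE4, had 38.4, 42.6, 50.3 and 39.6 CPM in the controls and 70.6, 103, 97.9 and 81.1 CPM in the knockouts. Knockout 1, the highest knockout library for Slc4a1 and Slc26a4, was the lowest for Slc4a9. The means were 42.7 ± 5.34 and 88.1 ± 14.9 CPM, 2.06-fold higher in the knockout (log2 fold change 1.04, adjusted p = 0.00260 by edgeR, SE 0.15).

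The gene of the type A exchanger rose more than both type B genes with all 8 libraries in the test, though the calls did not hold with each library left out. Within a library, the log2 ratio of Slc4a1 to Slc26a4 was -1.23 ± 0.60 in controls and -0.09 ± 0.32 in knockouts, a difference of 1.15. The log2 ratio of Slc4a1 to Slc4a9 went from -1.67 ± 0.76 to -0.08 ± 0.52, a difference of 1.59 (SD, n = 4 each). Neither ratio overlapped between the groups, and each had a two-sided exact permutation p = 0.0286, the smallest that 70 assignments of 4 against 4 allow, and 0.0429 after adjustment over the 3 ratios. The ratio of Slc26a4 to Slc4a9 differed by 0.45, with overlap and an exact permutation p = 0.0857. With 3 ratios, an adjusted p under 0.05 needs at least 2 of them at that smallest p. Without control 1, whose Slc4a1 was lowest, the Slc4a1 differences were 0.85 and 1.23 and no longer passed (adjusted exact permutation p = 0.0857 for both). The same adjusted p was reached without knockout 1 and without knockout 4. The calls thus depended on these 3 libraries. Groups that do not overlap with all 8 libraries cannot overlap with 1 left out, so these fits do not test the separation.

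**Figure D2:**
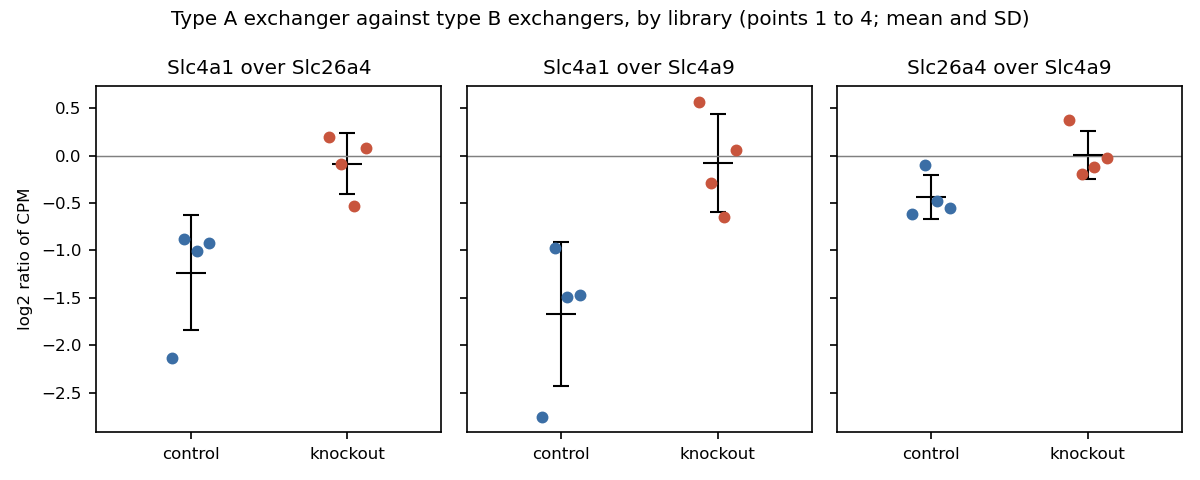
Log2 ratio of CPM (y axis) of the type A exchanger gene Slc4a1 to the type B genes Slc26a4 and Slc4a9, and of the type B genes to each other, in each library; points are libraries 1 to 4, bars the mean and SD. The groups separate in the first 2 panels, where control 1 lies lowest, and overlap in the third.

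Foxi1, the transcription factor, had 28.0, 34.6, 33.3 and 25.9 CPM in the controls and 57.0, 49.0, 51.2 and 43.8 CPM in the knockouts. The groups did not overlap, and the difference was the smallest among the 9 genes that rose in the edgeR fit. The means were 30.5 ± 4.15 and 50.3 ± 5.49 CPM, 1.65-fold higher in the knockout (log2 fold change 0.72, adjusted p = 0.00785 by edgeR, SE 0.13).

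Forkhead factors bind short DNA motifs, and since Foxi1 and its known pump targets rose together the bases before the start of the genes were searched. RefSeq promoter windows of assembly GRCm38.p6 were searched for 6 of the 10 genes: Slc26a4, Foxi1, Atp6v1b1, Atp6v1g3, Atp6v0a4 and Rhcg. Slc4a1, Atp6v0d2 and Car2 had no window in the reference, and Slc4a9 was left out by its chromosome. The shares over all windows were taken without that exclusion. The forkhead core motifs TGTTTAC and TGTTTGT were searched on both strands of the 250 bases before the start; they differ in their last 2 letters, so no stretch matches both at the same place. Of these 6 genes, 2 held a match. Over 32851 promoter windows of the same length, 3.17% held the first motif, 5.84% the second and 8.74% either. The windows of both genes with a match, and of Slc26a4 without one, are shown 5′ to 3′ on the strand of the gene, with matches in capitals.

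Atp6v1b1, chr6:83742767-83743016, plus strand: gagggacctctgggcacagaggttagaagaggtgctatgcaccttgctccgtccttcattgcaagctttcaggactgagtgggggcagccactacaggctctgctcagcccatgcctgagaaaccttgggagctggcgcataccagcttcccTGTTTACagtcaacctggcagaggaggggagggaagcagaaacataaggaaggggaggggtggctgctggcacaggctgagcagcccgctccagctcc

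Atp6v1g3, chr1:138273488-138273737, plus strand: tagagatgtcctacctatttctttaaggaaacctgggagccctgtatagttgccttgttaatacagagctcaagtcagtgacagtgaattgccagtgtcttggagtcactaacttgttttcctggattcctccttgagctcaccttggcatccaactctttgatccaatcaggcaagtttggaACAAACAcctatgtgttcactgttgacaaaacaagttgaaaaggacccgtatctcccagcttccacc

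Slc26a4, chr12:31559985-31560234, minus strand: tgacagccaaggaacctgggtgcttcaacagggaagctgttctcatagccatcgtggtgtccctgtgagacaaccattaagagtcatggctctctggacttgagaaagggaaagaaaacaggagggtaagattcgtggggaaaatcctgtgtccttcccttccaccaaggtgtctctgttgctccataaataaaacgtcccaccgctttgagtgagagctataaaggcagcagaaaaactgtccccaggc

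The match in Atp6v1b1 begins 98 bases before the start and is on the strand of the gene. The match in Atp6v1g3 begins 67 bases before the start and reads TGTTTGT on the opposite strand. These matches are letters only; the series measured no binding.

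The V-ATPase consists of a cytosolic V1 sector, which splits ATP, and a membrane V0 sector, which moves protons. Atp6v1b1 encodes the B1 isoform of a V1 subunit of the ATP-splitting head. It had 34.1, 69.7, 59.8 and 59.7 CPM in the controls and 166, 140, 130 and 134 CPM in the knockouts, with control 1 lowest, as for Slc4a1. The means of 55.8 ± 15.2 and 142 ± 16.0 CPM gave a difference of 1.35 on the log2 scale (adjusted p = 0.00334 by edgeR, SE 0.20).

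Atp6v1g3 encodes G3, an isoform of a subunit in the stalk of V1. Its levels were 31.5, 24.8, 26.8 and 22.3 CPM in the controls and 66.3, 41.8, 37.7 and 38.3 CPM in the knockouts. Control 1 was the highest control here, the reverse of its place for Atp6v1b1, and knockout 1 stood well above the other knockouts. The means were 26.4 ± 3.86 and 46.0 ± 13.6 CPM, 1.74-fold higher in the knockout (edgeR adjusted p = 0.0258). The call was lost without control 3, control 4 or knockout 2 (edgeR adjusted p = 0.0642, 0.0614 and 0.0501), and the log2 fold change went from 0.80 to 0.57 without knockout 1.

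Atp6v0d2 encodes d2, which joins V0 to the central stalk. Its levels were 20.5, 17.0, 20.6 and 12.6 CPM in the controls and 36.6, 29.0, 29.8 and 33.5 CPM in the knockouts. The means of 17.7 ± 3.80 and 32.2 ± 3.52 CPM gave a difference of 0.87 on the log2 scale (adjusted p = 0.0108 by edgeR, SE 0.17). The d2 isoform is also known from osteoclasts and macrophages. Among 12 measured genes of those cells edgeR called 0 higher and 2 lower, Mmp9 and Itgam. The size of both differences rested in part on control 1, where these genes were highest. Without it the log2 fold change of Mmp9 went from -2.71 to -1.70 and that of Itgam from -1.58 to -0.86. Both stayed called in that fit (adjusted p = 0.00490 and 0.0205 by edgeR). Itgam lost its call when any 1 knockout library was left out and with limma-voom (adjusted p = 0.0807), and Mmp9 without knockout 4 (adjusted p = 0.0505 by edgeR). Of the genes that edgeR did not call, Csf1r, a receptor of macrophages, stood at 36.0 ± 8.45 and 54.6 ± 8.02 CPM with no overlap between the groups. Its adjusted p was 0.0546 by edgeR, 0.0201 by DESeq2 and 0.0492 by limma-voom. Ctsk, a protease of osteoclasts, stood at 3.54 ± 1.72 and 5.98 ± 1.79 CPM (adjusted p = 0.206 by edgeR). Cd68 went the other way, at 32.2 ± 7.10 and 21.5 ± 2.94 CPM with overlap (adjusted p = 0.0534 by edgeR and 0.0189 by DESeq2). Mrc1 and Gpnmb had log2 fold changes of -1.13 and -0.98 (adjusted p = 0.0947 and 0.154 by edgeR). DESeq2 called Mrc1 (adjusted p = 0.0361). Of the 12 genes, 6 had a log2 fold change above 0 and 6 below 0. The tartrate-resistant phosphatase gene Acp5 stood at 72.8 ± 25.6 and 68.0 ± 4.70 CPM, and the fusion genes Dcstamp and Ocstamp had 0 to 22 counts in each library. All 14 listed genes summed to 228 to 386 CPM in controls and 281 to 387 CPM in knockouts; their part in the Atp6v0d2 difference was not tested.

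Atp6v0a4 encodes a4, an isoform of the V0 subunit that forms the proton path, and is known from the proximal tubule as well as intercalated cells. It had 162, 184, 204 and 220 CPM in the controls and 246, 394, 358 and 307 CPM in the knockouts. Knockout 1 was the lowest knockout, as for Slc4a9. The means were 192 ± 25.1 and 326 ± 64.1 CPM, 1.70-fold higher (log2 fold change 0.76, adjusted p = 0.0160 by edgeR, SE 0.16). Without control 1 and knockout 3 together the call was lost (edgeR adjusted p = 0.0687, log2 fold change 0.64). The reference gene model of Atp6v0a4 overlaps that of Tmem213 and of D630045J12Rik, and the library kit does not mark strand, so some reads may be shared.

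Rhcg encodes a channel for ammonia, the main carrier of acid into the urine, and is made by intercalated and other collecting duct cells. Its levels were 25.7, 102, 68.9 and 79.0 CPM in the controls and 233, 201, 198 and 191 CPM in the knockouts. Control 1 was again far below the other controls, whereas the knockouts lay close together. The means of 69.0 ± 32.1 and 206 ± 18.5 CPM gave a difference of 1.58 on the log2 scale (adjusted p = 0.0140 by edgeR, SE 0.33), which was 1.30 without control 1 and 1.83 without control 2.

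Car2 encodes carbonic anhydrase II, the cytosolic enzyme that makes protons and bicarbonate from carbon dioxide and water, and is known from several nephron segments besides intercalated cells. It had 502, 545, 647 and 601 CPM in the controls and 596, 539, 523 and 520 CPM in the knockouts. The groups overlapped. The means were 574 ± 63.5 and 545 ± 35.6 CPM, a difference of -0.08 on the log2 scale (adjusted p = 0.728 by edgeR, SE 0.12), and it was called in 0 of 18 alternative fits.

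Levels per gene length were compared as RPKM (CPM per 1000 bases of the deposited gene length). In controls the order was Car2 at 295 ± 32.6, Atp6v0a4 at 58.5 ± 7.65, Rhcg at 33.0 ± 15.4, Atp6v1b1 at 28.3 ± 7.72, Atp6v1g3 at 13.98 ± 2.05, Foxi1 at 12.9 ± 1.76, Slc4a9 at 12.4 ± 1.55, Slc26a4 at 10.3 ± 2.28, Atp6v0d2 at 7.06 ± 1.52 and Slc4a1 at 3.26 ± 1.50 RPKM. Rhcg and Atp6v1b1 overlapped, as did each neighbouring pair from Atp6v1g3 down to Atp6v0d2, while Slc4a1 lay below Atp6v0d2 in every control. In knockouts Car2 stayed first at 279.7 ± 18.3 RPKM. Slc4a1, at 18.4 ± 3.80 RPKM, overlapped both Foxi1 at 21.4 ± 2.33 RPKM and Atp6v0d2 at 12.9 ± 1.40 RPKM.

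The libraries did not order the 10 genes alike. Control 1 was the lowest control for 7 of them and the highest for Atp6v1g3. Knockout 1 was the highest knockout for 8 and the lowest for the other 2, Slc4a9 and Atp6v0a4.

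Most other genes of the proton pump did not pass the test. Of 20 other V-ATPase genes tested, 2 rose, 2 fell and 16 did not pass, with a median log2 fold change of 0.13. Most genes of the whole table did not pass either: 6.45% were called higher and 12.7% in either direction. Atp6v1c2, which encodes the C2 isoform, rose from 11.0 ± 4.48 to 30.7 ± 6.98 CPM (edgeR adjusted p = 0.0125), and Atp6v1a, which encodes the catalytic A subunit, from 287 ± 15.6 to 388 ± 31.3 CPM (edgeR adjusted p = 0.0297). The genes that fell were the widely expressed partners of B1 and a4: Atp6v1b2 went from 582 ± 15.4 to 411 ± 13.7 CPM (log2 fold change -0.50, adjusted p = 0.0127 by edgeR, SE 0.10) and Atp6v0a1 from 121 ± 18.3 to 82.9 ± 7.11 CPM (log2 fold change -0.55, adjusted p = 0.0237 by edgeR, SE 0.13). The partners of G3 and d2, Atp6v1g1 and Atp6v0d1, had log2 fold changes of -0.05 and 0.01 (edgeR adjusted p = 0.888 and 0.964).

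Calls of 2 of these genes rested on single libraries. Of the 8 fits with 1 library left out, Atp6v1a was called in 2, without control 1 or knockout 1, and Atp6v0a1 in 5, losing it without control 3, knockout 2 or knockout 4. The count of 4 called genes was 2 without control 3, knockout 2 or knockout 4, and also without control 1 and knockout 3 together, when Atp6v1c2 and Atp6v1b2 remained. Atp6v1e2 did not pass the filter, and Atp6v0c, which has pseudogene copies, had only 28 to 85 counts per library and is uncertain.

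**Figure D3:**
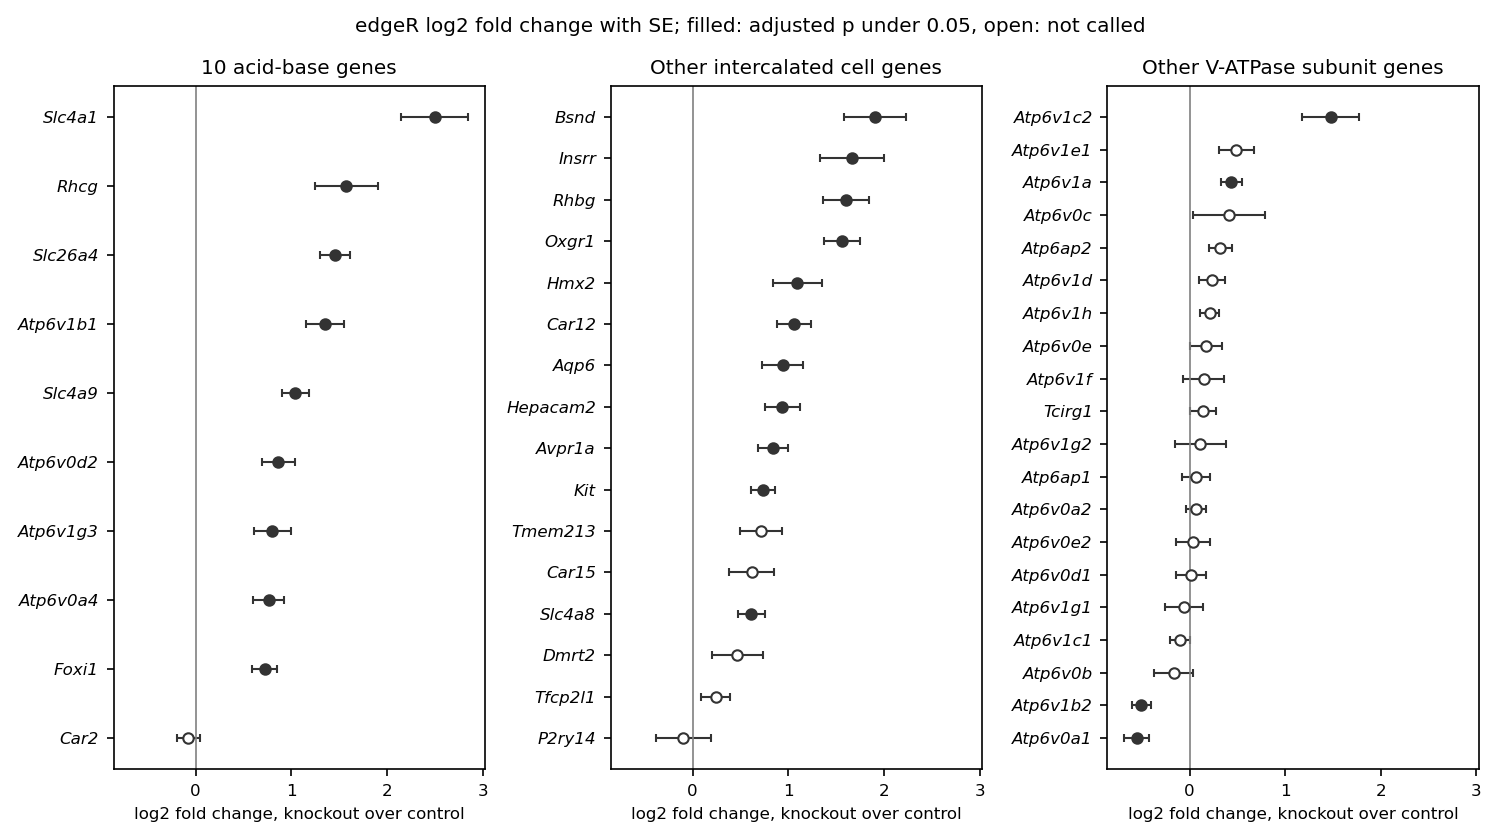
EdgeR log2 fold change of knockout over control (x axis) with its SE for the 10 acid-base genes, 16 of the 17 other intercalated cell genes tested and 20 other V-ATPase genes; filled points have an adjusted p under 0.05. Most points of the first 2 panels lie right of 0, and those of the third lie around 0, with Atp6v1b2 and Atp6v0a1 filled on the left.

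The shares of whole-tissue RNA that came from the isoform genes of the pump differed between the groups. Pump protein was not measured. B1 made up 11.7 ± 3.08% of the summed RPKM of both B isoform genes in controls and 32.5 ± 2.38% in knockouts, and the sum itself overlapped between the groups, at 241 ± 5.98 and 222 ± 10.1 RPKM. The share of a4 among the 4 a isoform genes went from 50.6 ± 5.11% to 65.7 ± 5.54%, and here the sum was higher in every knockout library (115 ± 5.45 and 150.1 ± 17.5 RPKM). G3 made up 5.56 ± 1.95% and 9.02 ± 0.993% of the G genes, and d2 7.76 ± 2.67% and 12.8 ± 0.859% of the d genes. C2 made up 9.95 ± 3.74% and 24.6 ± 4.38% of the C genes (SD, n = 4 each).

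Against the partner gene alone, the within-library log2 ratio differed, knockout minus control, by 1.90 for Atp6v1b1 over Atp6v1b2, 1.29 for Atp6v0a4 over Atp6v0a1, 0.86 for Atp6v0d2 over Atp6v0d1 and 0.81 for Atp6v1g3 over Atp6v1g1. None of these 4 ratios overlapped between the groups; each had a two-sided exact permutation p = 0.0286, the smallest possible, also after adjustment over the 4. These calls held without any 1 control library and were lost without any 1 knockout library. Without a knockout library, the adjusted exact permutation p was 0.0571 for the Atp6v1b1 and Atp6v0a4 ratios and 0.0762 to 0.0857 for the others. Before adjustment, the exact permutation p of the Atp6v1b1 and Atp6v0a4 ratios stayed at 0.0286, and that of the others rose. With 4 ratios, an adjusted p under 0.05 needs at least 3 of them at that smallest p. Groups that do not overlap with all libraries cannot overlap with 1 left out, so these fits do not test the separation of the 4 ratios. A ratio within a library does not depend on how the library was scaled.

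**Figure D4:**
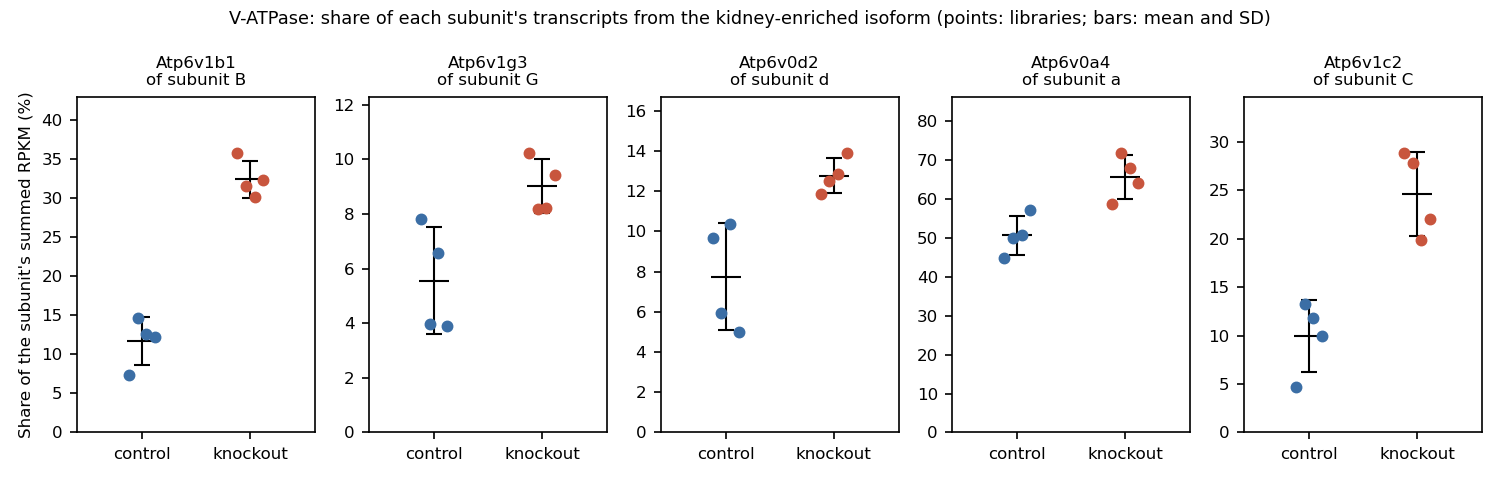
Share of the summed RPKM of each V-ATPase subunit (y axis, percent, from 0) that came from the isoform named above each panel, in each library; points are libraries 1 to 4 and bars the mean and SD. All knockout points lie above all control points in the 5 panels, with the widest gap for Atp6v1b1.

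Other genes known from intercalated cells moved the same way. Of 18 listed, 17 were tested, 12 rose, 0 fell and 5 did not pass, with a median log2 fold change of 0.94; 6.45% of all genes were called higher. Oxgr1, the receptor for oxoglutarate in type B cells, rose from 11.4 ± 3.12 to 33.6 ± 2.35 CPM, and Rhbg, the basolateral ammonia transporter, from 33.8 ± 11.2 to 103 ± 17.5 CPM. Kit, which encodes a receptor tyrosine kinase, rose from 14.1 ± 1.32 to 23.6 ± 1.70 CPM, and Car12, a membrane carbonic anhydrase, from 136 ± 30.7 to 283 ± 33.3 CPM. Bsnd, which encodes barttin and is also found in other distal segments, rose 3.75-fold, from 39.9 ± 18.5 to 149.6 ± 23.3 CPM. The genes that did not pass were Dmrt2, Car15, P2ry14, Tmem213 and Tfcp2l1, with log2 fold changes of 0.47, 0.62, -0.10, 0.71 and 0.24. Slc26a7 had 2 to 26 counts per library and was not tested. Leaving out 1 library gave 10 to 14 risen genes, and leaving out control 1 and knockout 3 together gave 11; Aqp6, Hmx2 and Slc4a8 were the risen genes that lost their call in at least 1 of these fits.

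The neighbouring principal cells, which take up sodium and water, gave a like picture: 11 of 15 genes rose, 0 fell and 4 did not pass. Their median log2 fold change was 1.18, and 6.45% of all genes were called higher. Not passing were Aqp2, Fxyd4, Gata3 and Elf5, with log2 fold changes of 1.25, 0.06, 0.51 and -0.65. Elf5 was lower, and Gata3 higher, in every knockout library than in every control. Scnn1a, a sodium channel subunit, rose from 82.1 ± 17.1 to 255 ± 21.4 CPM, Aqp3, a water channel, 2.96-fold, and Kcnj10, a potassium channel, 2.88-fold. Of the 11, Kcnj16 and Nr3c2 were the genes that lost their call without control 1 and knockout 3 together. In the 8 fits with 1 library left out, Avpr2 and Kcnj16 were called in 3 each and Nr3c2 in 6. The rest of the 11 were called in all 8. Each acid-base gene was set against the mean log2 CPM of the 15 principal cell genes in the same library. Slc4a1 gained on that mean by 1.61, Rhcg by 0.71 and Slc26a4 by 0.46 on the log2 scale, and Car2 had a knockout minus control difference of -1.09. These 4 did not overlap between the groups (two-sided exact permutation p = 0.0286 each), and their adjusted p over the 10 genes was 0.0714. With 10 tests and this smallest p, an adjusted p under 0.05 needs at least 6 genes at the smallest p together, so no single gene could pass alone and the adjusted values say little about any one of them. The other 6 had differences from -0.30 (Foxi1) to 0.37 (Atp6v1b1) and overlapped.

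**Figure D5:**
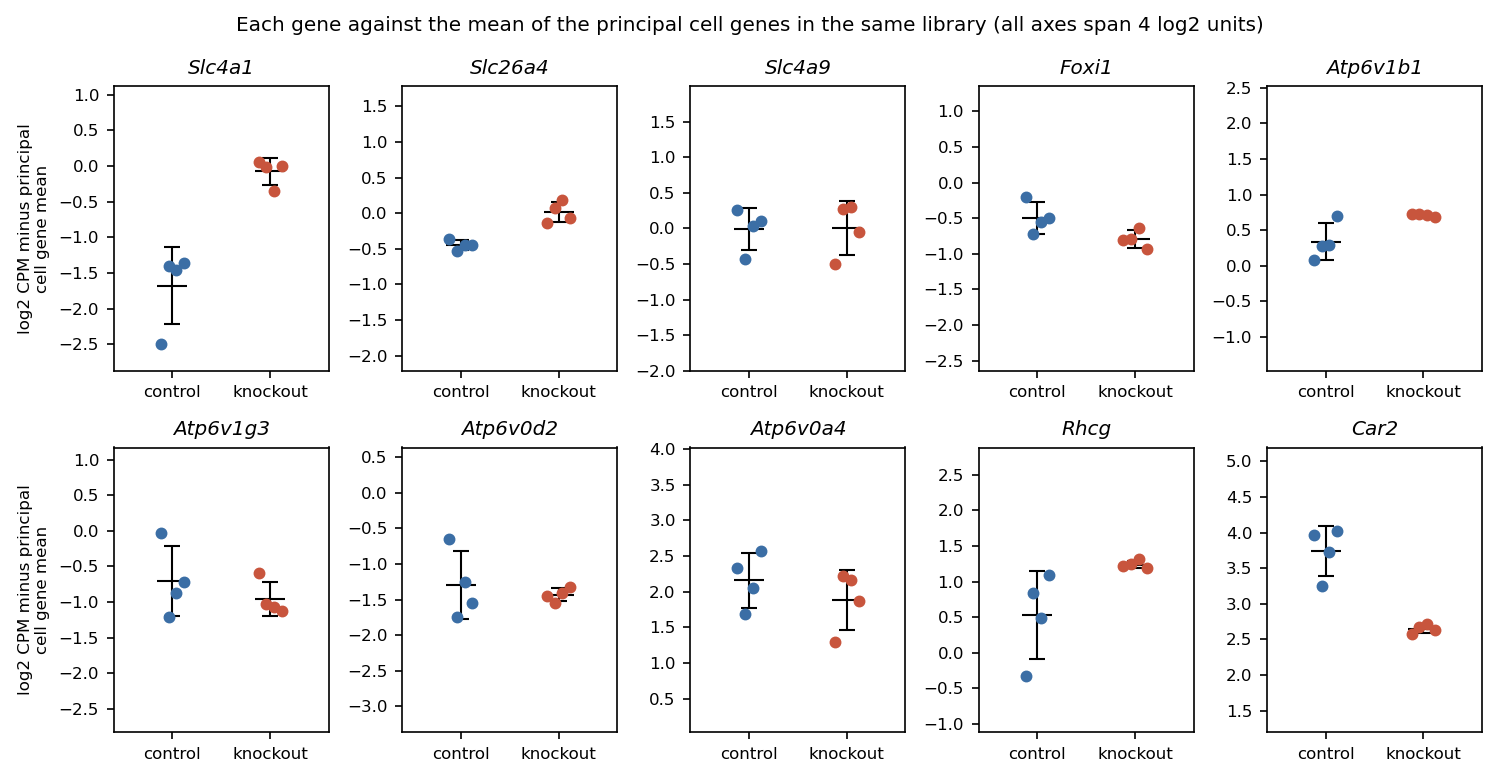
Log2 CPM of each acid-base gene minus the mean of 15 principal cell genes in the same library (y axis, each panel spanning 4 log2 units); points are libraries 1 to 4 and bars the mean and SD. The Slc4a1, Slc26a4, Rhcg and Car2 panels separate the groups, Car2 downward, and the other 6 overlap.

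A list of acid-base genes, mainly of the proximal tubule, where most filtered bicarbonate is taken back, was read as a second comparison. The list is not limited to genes of that segment. Of 10, 1 rose, 0 fell and 9 did not pass, against 6.45% called higher over all genes. The median log2 fold change of the 10 was 0.08. The gene that rose was Slc4a2, an anion exchanger of many cells, from 83.9 ± 6.74 to 115 ± 13.97 CPM (edgeR adjusted p = 0.0347), and of the 8 fits with 1 library left out it was called in 2, without control 1 or knockout 1. Slc4a4, the basolateral bicarbonate cotransporter, Slc9a3, the apical sodium-proton exchanger, and Pck1, an enzyme of ammonia-linked gluconeogenesis, had log2 fold changes of 0.14, 0.46 and 0.02 (edgeR adjusted p = 0.678, 0.170 and 0.973).

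By Pearson correlation over the 8 libraries, the genes most like the mean standardised level of the 10 were Kcnj16, Fam234b, Syt17, Gpx6, Pdhb and Rhbg, with r from 0.985 (Rhbg) to 0.994 (Kcnj16), among 12063 genes compared. After each group's mean was taken out, r was 0.938 for Kcnj16, 0.896 for Fam234b, 0.952 for Syt17, 0.881 for Gpx6, 0.847 for Pdhb and 0.924 for Rhbg. This is a description over libraries that fall into 2 groups and share their scaling. Kcnj16, a potassium channel subunit gene, went from 278 ± 21.4 to 377 ± 18.4 CPM and Gpx6, a glutathione peroxidase family gene, from 15.8 ± 3.42 to 51.4 ± 12.1 CPM.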

How the data were processed

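Kidney RNA-seq of 8 libraries was used. The authors deposited 1 table of raw counts per gene, with a gene length in bases as its other numeric column; the submitters' processing notes name the build mm39, HISAT2 2.2.1, Salmon 1.10.2, FastQC and Trim Galore 0.6.2, with no role for any. How reads were counted and filtered is not given in the sources used. Between 68.7% and 70.9% of values from 1 to 20 were even, against 49.5% to 50.4% over 100, so 1 fragment may have been counted as 2; intervals from counts would be too narrow. Genes were taken by symbol, and the identifier column was not used.

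edgeR 4.0.16 (R 4.3.3) ran filterByExpr (minimum count 10), TMM, glmQLFit and glmQLFTest on all 8 libraries without covariates, adjusted by Benjamini-Hochberg over 15000 genes; fold changes are log2, with SE from the F statistic. The steps were tested on simulated data. Levels are CPM with TMM factors; log2 ratios used a prior count of 2 and exact permutation tests. DESeq2 1.42.0, limma 3.58.1 (voom), other scalings, filters and left-out libraries were alternatives. The genes, lists and tests were chosen with earlier results of these data known. Named genes were the 10, the 4 partner subunits, up to 6 per list by smallest p, the defining genes of red cells and osteoclasts, and the 6 most alike in level; any other gene named was chosen after its values were seen. Some genes of the lists are counted but not reported here by name.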

Additional observations from a re-analysis of the deposited data

Results flagged for a closer look

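In 54 groups of 4 libraries (20 of gene levels and 34 of log2 ratios), 4 had a library farther from the rest than Dixon's 95% limit; chance gives about 1 in 20. Slc26a4 was lowest in knockout 4, at 79.8 CPM against 89.5 to 91.3 CPM in the other knockouts. Atp6v1g3 was highest in knockout 1, at 66.3 CPM against 37.7 to 41.8 CPM. Control 1 was lowest for the log2 ratio of Slc4a1 to Slc26a4, at -2.13 against -1.01 to -0.88 in the other controls, and for Slc4a1 minus the principal cell mean, at -2.49 against -1.45 to -1.36. The groups compared stayed apart in each of these 4 cases.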

How the results depend on the processing

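In the 18 alternative fits, 8 or 9 of the 10 acid-base genes were called higher and 0 lower, and each kept its direction; only Atp6v1g3 (3 fits) and Atp6v0a4 (1 fit) lost a call. The count over all genes, 1909, was 3109 with DESeq2 and 865 with the replicate block, 1045 without control 1 and knockout 3 together, and 907 to 1984 with 1 library left out. Of the other V-ATPase genes, 4 were called, against 1 with the replicate block, 2 without control 1 and knockout 3 together, and 2 to 4 with 1 library left out. The replicate block called 9 of the 10 acid-base genes; same-numbered libraries did not deviate together (r from -0.20 to 0.15), so the numbers were not taken as pairs. The 17 log2 ratio differences kept their direction and side of the threshold with a prior count of 0.5 and with halved counts. With the median of the principal cell genes, the Slc4a9 difference went from 0.01 to -0.079, neither past the threshold; the cause was not tested. Of the partner subunits, Atp6v1b2 lost its call in 1 fit, the replicate block (edgeR adjusted p = 0.0743), and Atp6v0a1 also with library totals only. The exact test with 1 library left out (35 assignments, smallest p 0.0286) was added after seeing the data. Over those 8 fits the difference ranged from 1.67 to 2.03 for Atp6v1b1 over Atp6v1b2, 0.65 to 1.01 for Atp6v1g3 over Atp6v1g1, 0.66 to 1.04 for Atp6v0d2 over Atp6v0d1 and 1.13 to 1.45 for Atp6v0a4 over Atp6v0a1, each losing its call after adjustment over the 4 ratios without any 1 knockout library. It ranged from 0.85 to 1.30 for Slc4a1 over Slc26a4 and 1.23 to 1.83 for Slc4a1 over Slc4a9, both lost without control 1, knockout 1 or knockout 4, and from 0.33 to 0.56 for Slc26a4 over Slc4a9, which passed without control 2 (adjusted p = 0.0286). Against the principal cell mean, Slc4a9 ranged from -0.13 to 0.18 and Atp6v0d2 from -0.29 to 0.082, with no call. The causes were not tested.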

Other observations

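Among 10 other carbonic anhydrase genes tested, 2 rose, 1 fell and 7 did not pass, and 12.7% of all genes were called in either direction. Car14, a membrane enzyme of the proximal tubule, rose from 9.67 ± 4.63 to 42.8 ± 16.7 CPM (SD, n = 4 each; log2 fold change 2.15, SE 0.38, edgeR adjusted p = 0.00687). Car5a, a mitochondrial enzyme, had 0 to 10 counts in the control libraries and 44 to 113 in the knockouts (edgeR adjusted p = 0.00765), so only its knockout level of 2.37 ± 0.696 CPM is given. Car13, a cytosolic enzyme like Car2, fell from 15.0 ± 6.59 to 5.15 ± 0.650 CPM (log2 fold change -1.55, SE 0.30, edgeR adjusted p = 0.00977). Each of these 3 kept its call in the 8 fits that left out 1 library. The median log2 fold change of the 10 was 0.82.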
